A study of Mus musculus with 8 samples.

Results

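The respiratory chain genes of the mouse brain cortex were examined in both genomes that encode them. Genes were taken by class and symbol, namely protein-coding genes whose names start with mt-, Nduf, Uqcr, Atp5 or Cox4 to Cox8, together with Cyc1, Sdha, Sdhb, Sdhc and Sdhd. Of 13996 genes with values, 12531 of them protein coding, 102 met this rule, and 91 of these lie in the nuclear genome on 19 chromosomes while 11 lie in the mitochondrial genome. RNA of cortexes from male C57BL/6 mice was sequenced after rRNA depletion, with 1 library for each of 4 mice on a normal diet and 4 mice on a high fat diet (HFD). Both groups were killed at 16 weeks of age after 8 weeks on their diet, and the HFD held 60% fat by weight. No allele, transgene or drug other than the ether used at sacrifice is named in the labels, and the groups share strain, sex, age and tissue.

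The respiratory chain sits in the inner mitochondrial membrane. Complexes I (NADH dehydrogenase) and II (succinate dehydrogenase) pass electrons to ubiquinone, complex III (cytochrome bc1) hands them to cytochrome c, and complex IV (cytochrome c oxidase) passes them to oxygen. Complexes I, III and IV pump protons, and complex V (ATP synthase) uses the proton gradient to make ATP, most of which neurons spend on ion pumping. Complex II is encoded by nuclear genes alone, whereas the other complexes are built from nuclear and mitochondrial gene products. The mitochondrial genes are transcribed as long precursors from both strands of the mitochondrial DNA and are then cut apart.

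Values are FPKM made by the authors, by definition fragment counts scaled to transcript length and to the mapped reads of the library, and given to 1 decimal. Median-ratio factors of the mice computed from these values were 0.998 to 1.007, although their summed FPKM ranged from 562431 to 639142. A median near 0 over all genes is thus a property of this scale. FPKM keeps no record of read number, so the depth behind a value is unknown. Diets were compared on log2(FPKM + 0.1) with limma over 13982 genes, a scale that understates the change of genes near 1 FPKM. A gene was called higher or lower at an adjusted p below 0.05. All 102 respiratory chain genes passed the filter on low values (a mean of 1 FPKM or more over the 8 mice and no 0). Errors are SD over 4 mice for FPKM and SE for log2 fold changes (HFD minus normal).

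The label cortex was checked against marker genes before the results. Markers of cortical projection neurons were present in every mouse, with a summed FPKM over 10 genes of 310 to 460 on the normal diet and 506 to 596 on the HFD, and 7 of 10 were higher on the HFD. Some or all markers of several other regions and cells were lower. Over all genes tested, 15.3% were called lower and 17.7% higher. Summed FPKM of 10 striatum markers was 260 to 462 in normal diet mice and 97.3 to 104.3 in HFD mice, with 9 of 10 lower, and 10 of 10 oligodendrocyte markers were lower, from sums of 2146 to 3537 down to 1482 to 2060. Cerebellum markers summed to 62.7, 350.3, 464.0 and 127.2 in normal diet mice 1 to 4 and to 42.8 to 49.4 in HFD mice, with 6 of 9 tested markers lower and 1 further marker at 0 in a mouse. That marker, Gabra6, stood at 1.7, 46.5, 61.7 and 12.2 FPKM in normal diet mice 1 to 4 and at 0.0 to 0.2 FPKM in HFD mice. Thalamus markers summed to 44.2 to 149.3 against 27.2 to 31.6, with 2 of 7 lower and the others not called. Markers of ependyma (4 of 4 tested) and blood (5 of 5) were also lower, with overlapping sums for blood, as were 3 of 7 for choroid plexus, whose sum reached 945.6 in HFD mouse 4 and 21.4 to 77.3 in the other HFD mice. Calls were mixed for 8 astrocyte markers (2 higher, 3 lower), 6 of cortical interneurons (2 and 3), 6 of endothelium (1 and 2) and 5 of oligodendrocyte precursors (1 and 1), and 1 of 9 mural cell markers was lower. Sums overlapped between the diets for these lists except the precursors, with 64.5 to 73.9 and 57.3 to 64.2. None of 7 microglia markers tested was called. The pieces of tissue thus differed between the diets in RNA of regions outside the cortex. A different share of such regions in the piece, fewer cells of a type and less RNA per cell cannot be told apart here. The part of these cell and region markers in the results on the respiratory chain was not tested beyond the fits given beside them.

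Many nuclear respiratory chain mRNAs were lower on the HFD, by small amounts. Of 91 nuclear genes, 45 were called lower (49.5%) and 0 higher, and 46 did not pass the threshold. Over all genes tested, 15.3% were called lower and 17.7% higher. The median log2 fold change of the nuclear genes was -0.18, a difference of -11.4%, beside a median of 0.0031 over all genes tested, and 78 of the 91 lay below 0. In 42 nuclear genes (46.2%) every HFD mouse was below every normal diet mouse, against 14.7% of all genes for that direction and 17.2% for the opposite one. The share called lower was 23.2% among 1297 other protein-coding genes that averaged 50 FPKM or more, which is nearer the level of these genes. Calls in which the higher diet level exceeded the lower one by over 50%, in either direction, made up 7.13% of all genes. Among the respiratory chain genes 1, Cox7a1, met this.

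**Figure D1:**
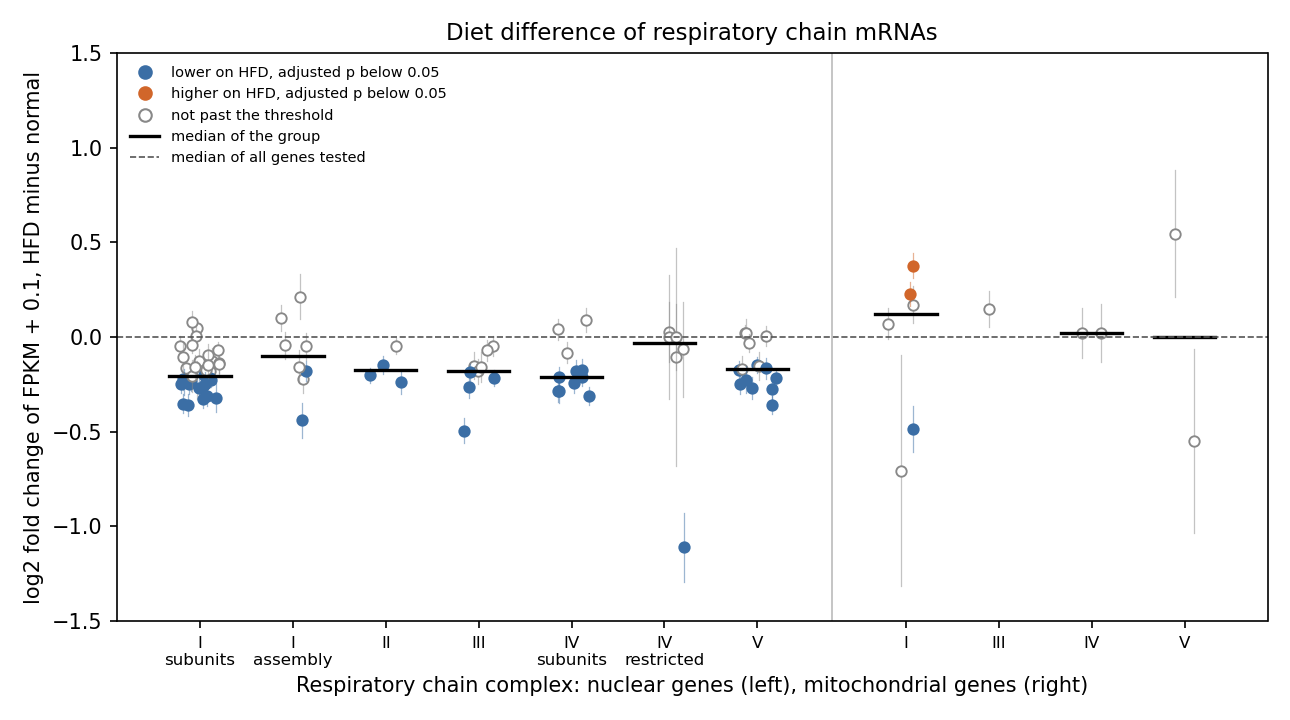
Log2 fold change of FPKM + 0.1 (HFD minus normal, y axis) of each respiratory chain gene by complex, nuclear genes left and mitochondrial genes right, with SE as thin bars; filled points are called, short lines are group medians and the dashed line is the median of all genes tested. Nuclear subunits of complexes I to V lie mostly below 0 with medians between -0.21 and -0.17, Cox7a1 lies lowest at -1.11, and called mitochondrial genes lie on both sides of 0 (Atp5s and Cox7a2l are not drawn).

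The number of calls varied with the mice and terms in the fit, while the median stayed near its value. With each mouse left out in turn, 31 to 46 nuclear genes were called lower and 30 of the 45 kept their call in every case. Of the other 15, Atp5h, Sdhc, Atp5a1 and Cox5b kept it with 5 to 7 of the 8 mice left out, Atp5g3, Ndufb10, Ndufa7, Ndufa12, Cox6b1 and Atp5s with 3 or 4, and Atp5o, Ndufaf4, Sdha, Atp5k and Cox5a with 1 or 2. Leaving out normal diet mice 2 and 3, whose cerebellum and thalamus marker sums were the highest, gave 24 calls and a median of -0.15, beside 8.69% of all genes called lower. Leaving out HFD mice 2 and 3, whose mitochondrial 12S rRNA stood apart, gave 15 calls and a median of -0.14, beside 5.41% of all genes. With the mean log2 level of the cerebellum markers as a covariate, 4 nuclear genes were called lower, beside 2.65% of all genes, and the median was -0.14. Those 4 were Atp5f1 (log2 fold change -0.34, adjusted p = 0.0362), Ndufv2 (-0.41, adjusted p = 0.0396), Ndufs3 (adjusted p = 0.0412) and Ndufs1 (-0.30, adjusted p = 0.0485), so every other respiratory chain call given below was lost in that fit. The covariate itself, centred on the mean of all mice, was -1.39 to -1.09 on the HFD and -0.72 to 2.73 on the normal diet. With it the SE rose, from 0.046 to 0.074 for Ndufs1 and from 0.058 to 0.093 for Ndufv2. In the lost calls, lower precision and a part of the markers cannot be told apart.

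Complex I, which oxidises NADH, has 36 nuclear subunits among these genes, and 17 were called lower and 0 higher, with a median log2 fold change of -0.20. The genes of the Ndufs and Ndufv names hold the subunits with the flavin and the iron-sulfur clusters, and 7 of these 11 were lower with a median of -0.25. The other subunits, Ndufa, Ndufb and Ndufc, were lower in 10 of 25 with a median of -0.18.

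Ndufv2, an iron-sulfur subunit of the NADH-binding module, had FPKM of 86.0, 87.4, 77.7 and 82.3 in normal diet mice 1 to 4 and of 69.6, 59.9, 64.2 and 66.8 in HFD mice 1 to 4. Every HFD value lay below every normal value, and the log2 fold change was -0.36 (SE 0.06, adjusted p = 0.00245). Its partner in the same module, Ndufv1, which binds NADH and flavin, gave 96.0 ± 3.0 and 91.5 ± 3.4 FPKM and was not called (-0.07, adjusted p = 0.251).

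Ndufs1, the largest iron-sulfur subunit, stood at 62.1, 62.6, 63.1 and 58.7 FPKM on the normal diet and at 51.9, 49.5, 47.2 and 47.7 on the HFD. The groups did not overlap, and the log2 fold change was -0.33 (SE 0.05, adjusted p = 0.00132). Ndufa1, a small membrane subunit, went from 119.8 ± 6.0 to 93.9 ± 4.2 FPKM without overlap (-0.35, SE 0.05, adjusted p = 0.00158). The further called subunits, among them Ndufs8, Ndufa9, Ndufb3 and Ndufb11, had log2 fold changes from -0.32 for Ndufc2 to -0.20 for Ndufb10, and none of them overlapped between the diets. The 19 subunits that did not pass ranged from -0.22 for Ndufab1, which carries the acyl chain of fatty acid synthesis in mitochondria, to 0.08 for Ndufb9. In all, 33 of the 36 lay below 0.

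Of 8 genes named as assembly factors of complex I, which help to build it and are absent from the mature complex, 2 were lower and the median was -0.10. Ndufaf2 fell from 25.0 ± 3.3 to 18.3 ± 1.4 FPKM without overlap (-0.44, SE 0.09, adjusted p = 0.00753). Ndufaf4 went from 8.65 ± 0.33 to 7.63 ± 0.22 FPKM (-0.18, SE 0.05, adjusted p = 0.0315), a call that held with 2 of 8 mice left out in turn. Reads of Ndufaf2 and Ndufs3 are uncertain in origin, since 81.3% and 84.1% of their longest transcripts lie in another annotated gene at 98% identity or more. The other 89 nuclear genes were under 50% by that measure, and 43 of them were called lower. The highest shares among these called genes were 45.1% in Cox5b, 39.8% in Uqcrb and 38.3% in Atp5o, so part of their reads is uncertain too. Others, such as Ndufv2 and Atp5b, had 0.0%.

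Complex II, the entry point of electrons from succinate and also an enzyme of the citric acid cycle, had 3 of 4 subunits lower, with a median of -0.18. The membrane anchors Sdhc and Sdhd went from 38.95 ± 2.96 to 32.95 ± 1.56 FPKM (-0.24, SE 0.06, adjusted p = 0.0172) and from 63.1 ± 2.2 to 54.8 ± 1.0 FPKM (-0.20, SE 0.04, adjusted p = 0.00548). Values of Sdhd were 63.8, 65.8, 61.7 and 61.0 against 55.2, 53.4, 54.8 and 55.7, whereas Sdhc touched at 35.0 FPKM in normal diet mouse 4 and HFD mouse 1. Sdha, the flavoprotein that binds succinate, changed from 137.5 ± 6.2 to 124.1 ± 3.7 FPKM (-0.15, SE 0.05, adjusted p = 0.0357), a call kept with 2 of 8 mice left out in turn. The iron-sulfur subunit Sdhb gave 98.6 ± 3.4 and 95.3 ± 2.2 FPKM and was not called (-0.05, adjusted p = 0.393).

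All 9 nuclear subunits of complex III had log2 fold changes below 0, with a median of -0.18, and 4 were called lower. Uqcrb, the ubiquinone-binding protein of the complex (chromosome 13: 66900617 to 66905378, minus strand, GRCm38), showed the lowest value of any nuclear subunit of complexes I to V. Its FPKM was 160.4, 180.4, 166.5 and 156.8 in normal diet mice and 127.6, 109.0, 111.0 and 124.1 in HFD mice. The groups did not overlap, and the log2 fold change was -0.49 (SE 0.07, adjusted p = 0.0012). With the cerebellum markers as a covariate it was -0.40 (adjusted p = 0.056).

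Uqcrh, the hinge protein that contacts cytochrome c1, went from 333.8 ± 19.5 to 277.9 ± 11.6 FPKM (-0.26, SE 0.06, adjusted p = 0.00753). Uqcrfs1, the Rieske iron-sulfur protein, went from 65.1 ± 2.5 to 56.0 ± 1.6 FPKM (-0.22, SE 0.04, adjusted p = 0.00566). The core protein gene Uqcrc2 was also lower (-0.19, adjusted p = 0.0139). The small subunits Uqcr11 (-0.18, adjusted p = 0.0635), Uqcrq (-0.16, adjusted p = 0.148) and Uqcr10 (-0.15, adjusted p = 0.127) were not called. Cyc1, which encodes cytochrome c1, and Uqcrc1, the other core protein gene, lay at -0.05 (adjusted p = 0.514) and -0.07 (adjusted p = 0.362) and were not called.

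In complex IV, 8 of 11 nuclear subunits were lower and 0 higher, with a median of -0.21. In each of these 8 all HFD values lay below all normal values. Cox7b, a small membrane subunit encoded on the X chromosome, had FPKM of 133.0, 137.4, 131.7 and 126.5 on the normal diet and of 112.7, 101.5, 106.0 and 106.3 on the HFD (-0.31, SE 0.05, adjusted p = 0.00175). Cox7c went from 213.9 ± 14.0 to 175.4 ± 9.3 FPKM (-0.29, SE 0.06, adjusted p = 0.00727). Ndufa4, named for complex I and since assigned to complex IV, went from 313.9 ± 19.2 to 257.4 ± 9.9 FPKM (-0.28, SE 0.06, adjusted p = 0.00544).

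Cox7a2, Cox5b, Cox6c, Cox5a and Cox6b1 were lower by -0.24 to -0.18 on the log2 scale. The call of Cox5a (132.8 ± 5.4 and 117.6 ± 8.4 FPKM, adjusted p = 0.0425) held with 1 of 8 mice left out in turn. The 3 subunits with the highest levels in the complex were not called. Cox4i1, a large regulatory subunit, gave 688.1 ± 12.95 and 650.0 ± 32.0 FPKM (-0.08, adjusted p = 0.271), Cox6a1 gave 480.3 ± 11.4 and 494.9 ± 28.7 FPKM (0.04, adjusted p = 0.593), and Cox8a gave 688.7 ± 32.0 and 733.2 ± 38.6 FPKM (0.09, adjusted p = 0.285).

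Tissue-restricted paralogs of complex IV subunits were near the lower limit of the values, with mean FPKM of 1.3 to 6.8 on the normal diet. Among these 6 genes Cox7a1, the heart and skeletal muscle form of subunit VIIa (chromosome 7: 30184144 to 30186078, plus strand, GRCm38), was called lower. It stood at 5.6, 7.5, 8.5 and 5.3 FPKM in normal diet mice and at 3.7, 2.5, 2.5 and 3.5 FPKM in HFD mice, without overlap. The log2 fold change of -1.11 (SE 0.18, adjusted p = 0.00258) was the lowest of all 102 genes, and it was -0.64 with the cerebellum covariate (adjusted p = 0.137). The ratio of Cox7a1 to the broadly expressed form Cox7a2, chosen after the values were seen, was 0.0337 ± 0.0078 in normal diet mice and 0.0179 ± 0.0027 in HFD mice. Ndufa4l2, Cox4i2, Cox6a2, Cox6b2 and Cox8b ranged from -0.10 to 0.03 with SE of 0.16 to 0.57, so changes of the size seen in the subunits could not be detected at these levels. Cox7a2l, which links complexes III and IV, was not called (-0.07, adjusted p = 0.27).

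Complex V had 9 of 15 nuclear subunits lower, 0 higher and a median of -0.17. Atp5f1, subunit b of the peripheral stalk (chromosome 3: 105942698 to 105960099, minus strand, GRCm38), had the lowest adjusted p of all 102 genes. Its FPKM was 132.4, 135.3, 130.3 and 123.9 in normal diet mice and 102.7, 97.3, 100.1 and 106.6 in HFD mice. The gap between the groups was wider than the spread within either, and the log2 fold change was -0.36 (SE 0.05, adjusted p = 0.00107). Atp5h, subunit d of the same stalk, went from 302.1 ± 25.4 to 249.8 ± 14.6 FPKM (-0.27, SE 0.07, adjusted p = 0.0169).

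The catalytic head of the enzyme was represented by Atp5b and Atp5a1, its beta and alpha subunits. Atp5b went from 669.4 ± 33.1 to 556.0 ± 19.3 FPKM (-0.27, SE 0.06, adjusted p = 0.00747). Atp5a1 went from 394.6 ± 11.2 to 349.7 ± 10.9 FPKM (-0.17, SE 0.05, adjusted p = 0.02), a call kept with 5 of 8 mice left out in turn. Atp5c1, Atp5k, Atp5j, Atp5o and Atp5g3 were also lower, by -0.25 to -0.15. Atp5d, Atp5e and Atp5j2 lay between 0.0064 and 0.0191, and Atp5g1, Atp5l and Atp5g2 between -0.17 and -0.03, and these 6 were not called. Atp5s, a factor associated with the enzyme, was lower from 6.38 ± 0.48 to 5.28 ± 0.35 FPKM (-0.27, SE 0.08, adjusted p = 0.0269), with both groups holding a value of 5.7.

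The difference was present in every HFD mouse and differed in depth among them. Averaged over the 91 nuclear genes, log2(FPKM + 0.1) minus the normal diet mean was -0.0091, 0.0526, -0.0005 and -0.0429 in normal diet mice 1 to 4 and -0.118, -0.247, -0.180 and -0.138 in HFD mice 1 to 4. HFD mouse 2 held the lowest HFD value of 53 of the 91 genes, and HFD mouse 1 held the highest of 56. On the normal diet, mouse 2 held the highest value of 47 and mouse 4 the lowest of 48. In each of complexes I to V, taken alone, HFD mouse 1 lay nearest to the normal diet and HFD mouse 2 farthest from it. The nuclear genes summed to 12194 to 12968 FPKM on the normal diet and to 10762 to 11868 FPKM on the HFD, which is 3.85% ± 0.10 and 3.49% ± 0.12 of the FPKM of all nuclear protein-coding genes.

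**Figure D2:**
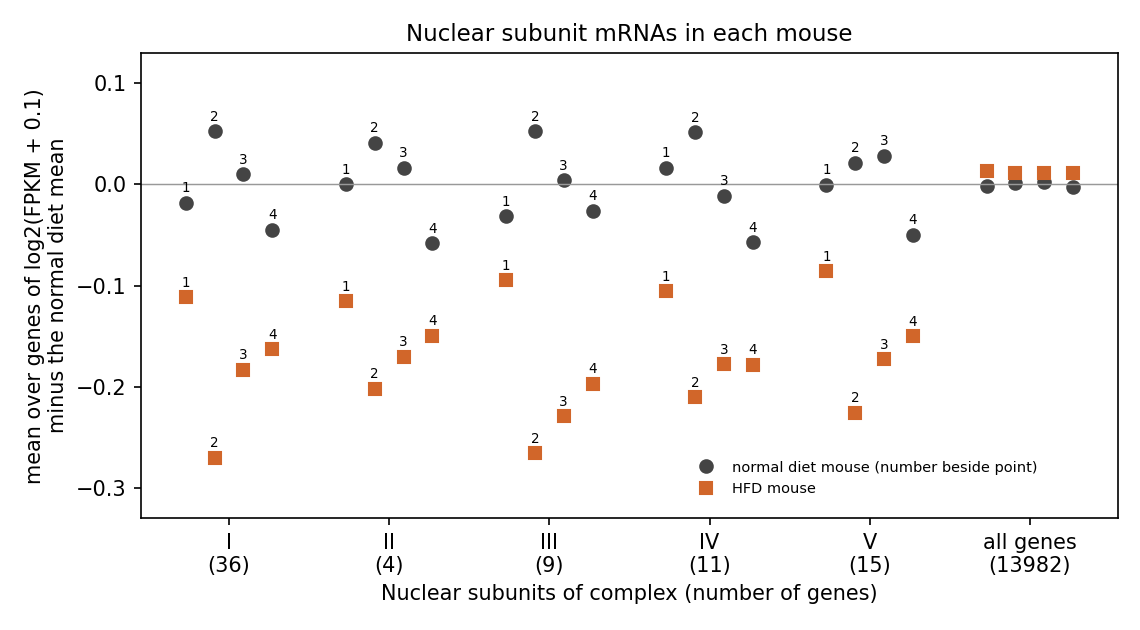
Mean over the nuclear subunits of each complex of log2(FPKM + 0.1) minus the normal diet mean of each gene (y axis) in every mouse, with all genes tested at the right; circles are normal diet mice, squares are HFD mice, and the numbers name the mice. In each complex the 4 HFD mice lie below the 4 normal diet mice, with HFD mouse 2 lowest, while all genes tested stay between -0.0021 and 0.0132.

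Of 11 mitochondrial genes with values, 2 were called higher, 1 lower and 8 did not pass, with a median log2 fold change of 0.07. These shares, 18.2% and 9.09%, stand beside 17.7% and 15.3% over all genes. All 3 called genes encode membrane subunits of complex I. mt-Nd5 (mitochondrial genome, 11742 to 13565, plus strand) stood at 219.1, 211.9, 189.1 and 208.0 FPKM on the normal diet and at 254.1, 293.0, 275.8 and 252.5 FPKM on the HFD. Every HFD value lay above every normal value, and the log2 fold change was 0.38 (SE 0.07, adjusted p = 0.00329), kept with each mouse left out in turn and lost with the cerebellum covariate (0.26, adjusted p = 0.137).

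mt-Nd4 (10167 to 11544, plus strand) stood at 374.0, 374.8, 344.1 and 365.1 FPKM against 406.7, 468.0, 434.6 and 400.9 FPKM. The groups did not overlap, and the log2 fold change was 0.23 (SE 0.06, adjusted p = 0.0203). This call was lost without normal diet mouse 3 or without HFD mouse 2, and also after correction for GC content. mt-Nd6 (13552 to 14070), the protein gene encoded on the opposite strand to the other mitochondrial protein genes, went the other way. Its FPKM was 133.7, 132.9, 179.1 and 121.5 in normal diet mice and 99.7, 116.5, 90.8 and 95.4 in HFD mice, without overlap, with normal diet mouse 3 high. The log2 fold change was -0.49 (SE 0.12, adjusted p = 0.0136), kept with each mouse left out in turn, and it was -0.25 with the cerebellum covariate (adjusted p = 0.408).

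**Figure D3:**
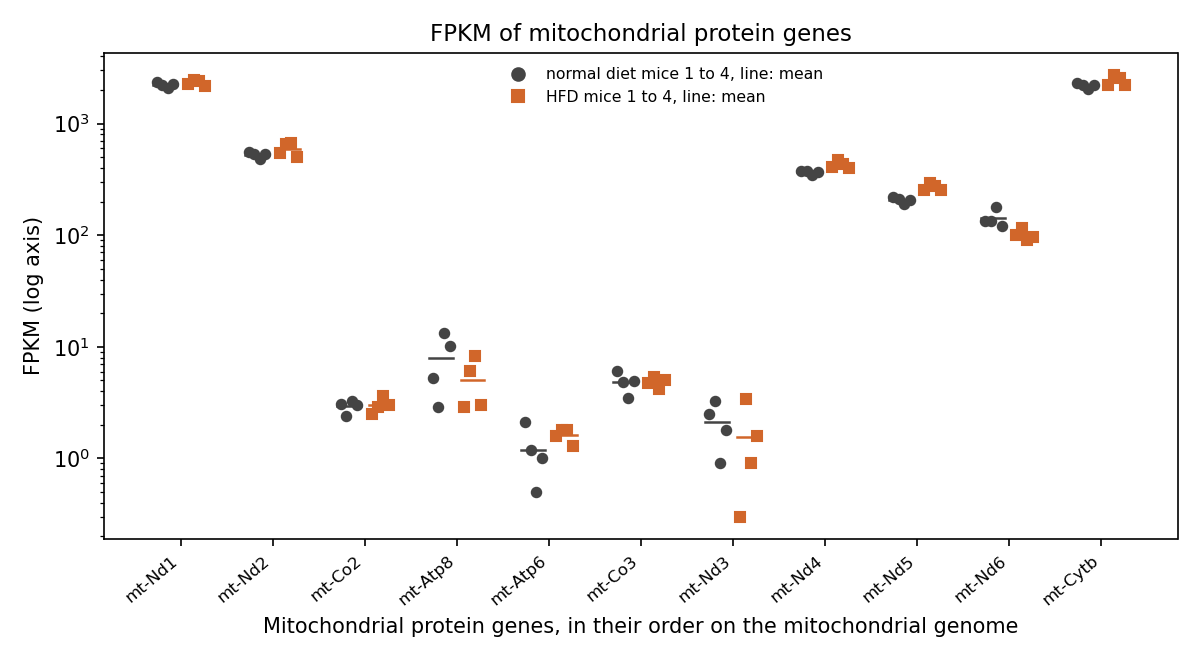
FPKM on a log axis of the 11 mitochondrial protein genes in gene order (x axis), with 4 normal diet mice as circles, 4 HFD mice as squares and short lines for the means. mt-Nd1 and mt-Cytb have normal diet means of 2216 and 2197 FPKM, mt-Co2 to mt-Nd3 stand at 13.3 FPKM or less in every mouse, and the groups separate in mt-Nd4, mt-Nd5 and mt-Nd6.

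The other mitochondrial genes with high values were not called. mt-Nd1, a complex I subunit beside the ubiquinone site, gave 2216 ± 116 and 2327 ± 138 FPKM (0.07, adjusted p = 0.536), and mt-Nd2, a proton-pumping subunit, gave 525.9 ± 29.9 and 596.0 ± 84.7 FPKM (0.17, adjusted p = 0.209). mt-Cytb, cytochrome b of complex III, gave 2197 ± 113 and 2440 ± 252 FPKM (0.15, adjusted p = 0.254). For mt-Nd2 and mt-Cytb, HFD mice 2 and 3 were above all other mice and HFD mice 1 and 4 lay within the normal diet range. The 12S rRNA gene mt-Rnr1, no protein gene, showed the same split more strongly, at 4251, 4515, 5396 and 4301 FPKM on the normal diet and 4095, 7860, 9513 and 4015 FPKM on the HFD (0.37, adjusted p = 0.332). The rRNA removal kit used by the study is designed to take out mitochondrial as well as cytoplasmic rRNA, so these are residual levels, and the part of the removal in this split was not tested. The 11 mitochondrial protein genes with values made up 0.926% ± 0.050 of the summed FPKM on the normal diet and 1.03% ± 0.14 on the HFD, with overlap. This sum lacks mt-Co1 and mt-Nd4l, and several of its genes have the very low values described below. It is therefore not the share of all mitochondrial mRNA.

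Ratios within a mouse do not depend on how libraries were scaled, and those given here were chosen after the values were seen. The ratio of mt-Nd5 to mt-Nd1 was 0.0936, 0.0963, 0.0915 and 0.0921 in normal diet mice and 0.113, 0.119, 0.114 and 0.116 in HFD mice. The ratio of mt-Nd4 to mt-Nd1 was 0.165 ± 0.005 and 0.184 ± 0.004, and that of mt-Nd5 to mt-Nd4 was 0.568 ± 0.015 and 0.629 ± 0.004, also without overlap. The ratio of mt-Nd6 to mt-Nd5, neighbours encoded on opposite strands, was 0.61, 0.627, 0.947 and 0.584 in normal diet mice and 0.392, 0.398, 0.329 and 0.378 in HFD mice. The ratios of mt-Nd2 and mt-Cytb to mt-Nd1 overlapped between the diets. The ends of mt-Nd5 and mt-Nd6 overlap between positions 13552 and 13565. Libraries were made with a stranded kit, but the sources used here do not say whether the counting used strand, so reads of that stretch may have gone to either gene.

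**Figure D4:**
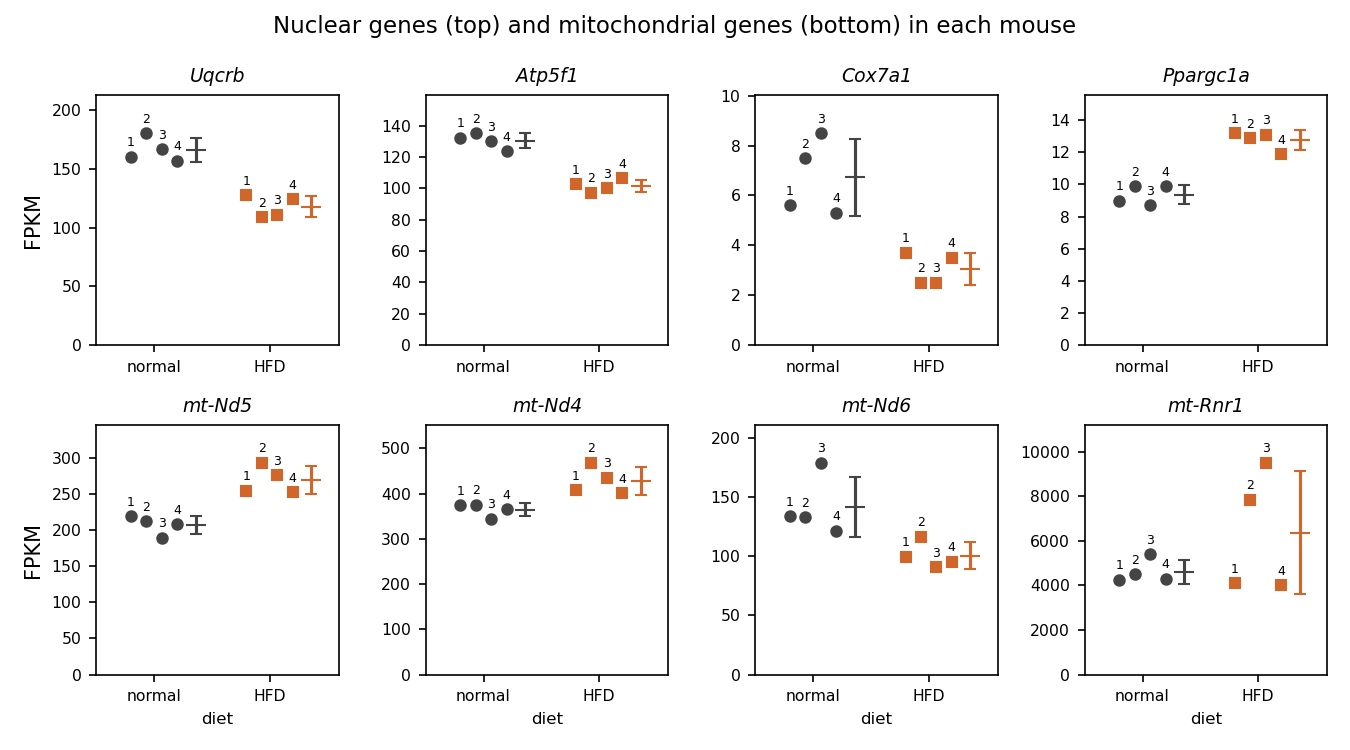
FPKM (y axis, from 0) in each mouse, numbered 1 to 4, of 4 nuclear genes (top) and 4 mitochondrial genes (bottom) on the normal diet (circles) and the HFD (squares), with mean ± SD beside the points. The diets do not overlap in the 7 protein genes, with HFD values lower in Uqcrb, Atp5f1, Cox7a1 and mt-Nd6 and higher in Ppargc1a, mt-Nd5 and mt-Nd4, whereas HFD mice 2 and 3 alone stand high in mt-Rnr1.

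The remaining mitochondrial genes were listed far below their neighbours on the mitochondrial genome. mt-Co2 and mt-Co3 (complex IV) and mt-Atp6 and mt-Atp8 (complex V), with mt-Nd3 (complex I), had FPKM between 0.3 and 13.3 in all mice, although they lie on the same precursor as mt-Nd1 and mt-Cytb. mt-Co1 and mt-Nd4l were not analysed here. In GENCODE M21, nuclear pseudogenes on chromosome 1 between 24611535 and 24615565 copy this stretch of the mitochondrial genome. The transcripts of mt-Co2, mt-Atp6 and mt-Co3 matched their copies over 681, 678 and 783 bases with 0 mismatches, and that of mt-Nd3 over 345 bases with 1. The copy of mt-Nd4 covers 63.6% of it without a mismatch, so its values are uncertain too. Copies of mt-Nd6 (93.6% identity) and mt-Cytb (92.9%) are further diverged, and that of mt-Nd5 covers 52.3% of it at 95.2%. Among annotated transcripts, no copy covering 50% or more of the gene's transcript was found for mt-Nd1, mt-Nd2 or mt-Atp8. The last of these, mt-Atp8, is itself one of the 5 genes with low values. However, mt-Atp8 (7766 to 7969) lies between mt-Co2 and mt-Atp6, and its end overlaps mt-Atp6. Their copies stand at 24614885 to 24615565 and 24613974 to 24614651 on chromosome 1. The overlapping end of mt-Atp8, from 7927 to 7969, lies within the copy of mt-Atp6 without a mismatch. Sequence outside annotated transcripts was not searched, so whether that stretch also copies the rest of mt-Atp8 was not tested. The sources used here do not say how reads that match several places were counted. Of 11 such pseudogenes looked for by symbol, 0 matched a gene among the values used, so they were not analysed here. No diet difference was detectable in these 5 genes, with SE of 0.13 to 0.61 on the log2 scale.

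The following stretches of 60 bases show how closely reads could match both genomes. Each mitochondrial transcript is given 5′ to 3′ from GENCODE M21 (GRCm38) with the aligned bases of its nuclear copy, and capitals mark positions at which they differ.
mt-Atp6, chrM:7927-7986, plus strand: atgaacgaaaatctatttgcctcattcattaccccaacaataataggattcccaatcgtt
Gm10925, its copy on chromosome 1: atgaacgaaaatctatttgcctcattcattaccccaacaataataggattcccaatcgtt
mt-Nd3, chrM:9459-9518, plus strand: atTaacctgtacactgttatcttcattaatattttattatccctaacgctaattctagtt
Gm28438, its copy on chromosome 1: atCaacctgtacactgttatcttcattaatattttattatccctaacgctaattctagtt
mt-Nd6, chrM:13840-13899, minus strand: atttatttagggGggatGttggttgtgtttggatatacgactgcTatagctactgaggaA
Gm11408, its copy on chromosome 4: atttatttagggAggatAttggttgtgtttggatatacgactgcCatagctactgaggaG
The mt-Atp6 pair is the same throughout, the mt-Nd3 pair differs at 1 base, and the mt-Nd6 pair differs at 4 bases here and at 33 of 519 in all.

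Other genes of mitochondrial energy metabolism were taken from 5 lists, in which 38 genes were called. The shares below stand beside 15.3% lower and 17.7% higher over all genes. Among other protein-coding genes that averaged 50 FPKM or more, 23.2% were lower. With the cerebellum covariate 2 of these calls were kept, those of Ppargc1a and Polrmt, and every other call in these lists was lost, with adjusted p of 0.0617 for Sucla2 to 0.726 for Gpd2 among the genes named here. When single mice were left out, 20 of the 38 were kept whichever mouse was missing. Of 20 genes of the pyruvate dehydrogenase complex and the citric acid cycle, 9 were lower (45%) and 0 higher, with a median of -0.12. Sucla2, a subunit of succinyl-CoA ligase, went from 85.2 ± 4.7 to 67.3 ± 0.9 FPKM (-0.34, SE 0.05, adjusted p = 0.00133), and Pdhb, the E1 beta subunit of pyruvate dehydrogenase, from 64.5 ± 3.3 to 51.5 ± 1.5 FPKM (-0.32, SE 0.05, adjusted p = 0.0016). Of 20 electron carriers and other entry points, 5 were lower (25%) and 1 higher, with a median of -0.05. Cycs, which encodes the cytochrome c that shuttles electrons from complex III to complex IV, stood at 23.3, 23.8, 23.7 and 23.6 FPKM on the normal diet and at 18.2, 17.6, 18.6 and 20.4 FPKM on the HFD (-0.34, adjusted p = 0.00198). Coq10b, a ubiquinone-binding protein, was lower (-0.39, adjusted p = 0.00364) and Gpd2, the mitochondrial glycerol 3-phosphate dehydrogenase, was higher (0.29, adjusted p = 0.0226, kept with 4 of 8 mice left out in turn).

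Of 44 further assembly factors of the complexes, 11 were lower (25%) and 1 higher (2.27%), with a median of -0.12, beside 15.3% and 17.7% of all genes. Those named by size were Cox16 (-0.46, adjusted p = 0.0163) and Cox20 (-0.41, adjusted p = 0.0075), which act in the making of complex IV, and Cox10, which makes its heme (0.20, adjusted p = 0.0317, kept with 2 of 8 mice left out in turn). Of other gene groups, 0 of 77 mitochondrial ribosomal protein genes were higher and 21 lower, with a median of -0.09. Of 73 cytosolic ribosomal protein genes, 9 were higher and 3 lower, with a median of 0.04. These counts too stand beside 17.7% higher and 15.3% lower over all genes.

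Of 14 regulators of respiratory gene transcription, 3 were higher (21.4%) and 1 lower (7.14%), with a median of 0.0094, beside 17.7% and 15.3% of all genes. Ppargc1a, the coactivator PGC-1alpha that raises transcription of respiratory genes, stood at 9.0, 9.9, 8.7 and 9.9 FPKM on the normal diet and at 13.2, 12.9, 13.1 and 11.9 FPKM on the HFD. All HFD values lay above all normal values, and the log2 fold change was 0.44 (SE 0.06, adjusted p = 0.00141), with 0.44 and an adjusted p of 0.0463 under the cerebellum covariate. The related coactivator genes Ppargc1b and Pprc1 were higher by 0.35 (adjusted p = 0.0156) and 0.41 (adjusted p = 0.0145), with adjusted p of 0.086 and 0.1035 under that covariate, and Tfeb, a regulator of lysosomal and mitochondrial genes, was lower (-0.43, adjusted p = 0.0202, kept with 5 of 8 mice left out in turn). The transcription factors that bind many respiratory gene promoters were not called, with Nrf1 at 0.03 (adjusted p = 0.768) and Gabpa at -0.19 (adjusted p = 0.155).

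Of 30 genes of mitochondrial transcription, replication and RNA handling, 2 were higher (6.67%) and 5 lower (16.7%), with a median of -0.07. Over all genes 17.7% were higher and 15.3% lower, so the share called lower was near that of all genes. Polrmt, the mitochondrial RNA polymerase, stood at 7.5, 8.2, 8.5 and 7.5 FPKM against 9.8, 9.6, 9.9 and 9.2 (0.28, SE 0.06, adjusted p = 0.00827, and 0.41 with an adjusted p of 0.0352 under the cerebellum covariate). Polg, the catalytic subunit of the mitochondrial DNA polymerase, was higher (0.16, adjusted p = 0.0377), whereas its accessory subunit Polg2, near 1 FPKM, was lower (-0.51, adjusted p = 0.0466). Both of these calls were kept with 2 of 8 mice left out in turn. Fastkd5, an RNA-processing protein of mitochondria, was lower (-0.40, adjusted p = 0.0081). Tfam, which packages and activates mitochondrial DNA, went from 14.7 ± 1.6 to 12.95 ± 0.53 FPKM and was not called (-0.17, adjusted p = 0.123).

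Sequence features were compared among the nuclear genes. Across the 91 genes, which share libraries and are not replicates, the log2 fold change was related to the GC percent of the longest transcript (Pearson r 0.35, Spearman rho 0.47) and hardly to log2 length (r 0.03, rho -0.07) or log2 mean FPKM (r -0.02, rho -0.06). Median GC was 48.8% in the 45 genes called lower, 52.9% in the 46 not past the threshold and 49.8% in all protein-coding genes tested. After a GC correction within each mouse, 46 nuclear genes were called lower, 42 of them shared with the 45.

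Promoter windows of RefSeq (GRCm38.p6), from 250 bases before to 50 after the start of transcription, were matched for 75 of the 91 nuclear genes. They were searched on both strands for the core letters of 3 motifs known from respiratory gene promoters. A gene was counted when any of its windows held the letters. The NRF1 core CGCATGCG was found in 11 of 75 genes (14.7%) and the YY1 letters AAGATGGC in 11 (14.7%). The ETS letters CCGGAAG, to which GABPA binds, were found in 17 (22.7%). Of 9618 other protein-coding genes tested, 4.26%, 5.22% and 19.2% held them. Counted by window and not by gene, all 32851 windows held them in 1.87%, 2.75% and 8.86%, which is not comparable with the shares of genes. The NRF1 core was in 3 of 38 genes called lower and in 8 of 37 not past the threshold. The YY1 letters were in 4 and 7 of these genes, and the ETS letters in 8 and 9. A match is a description of letters and not of binding.

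Windows of 2 complex V subunits that were called lower and hold the NRF1 core are shown 5′ to 3′ on the gene's strand, with the letters of matched motifs on either strand in capitals.
Atp5k, chr5:108434350-108434649, minus strand: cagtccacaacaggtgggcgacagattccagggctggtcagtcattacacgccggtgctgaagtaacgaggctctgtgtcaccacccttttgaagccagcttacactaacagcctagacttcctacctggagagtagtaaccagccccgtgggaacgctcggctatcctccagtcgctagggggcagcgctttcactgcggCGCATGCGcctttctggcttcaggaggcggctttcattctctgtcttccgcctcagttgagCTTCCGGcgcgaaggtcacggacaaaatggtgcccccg
Atp5j, chr16:84834927-84835226, minus strand: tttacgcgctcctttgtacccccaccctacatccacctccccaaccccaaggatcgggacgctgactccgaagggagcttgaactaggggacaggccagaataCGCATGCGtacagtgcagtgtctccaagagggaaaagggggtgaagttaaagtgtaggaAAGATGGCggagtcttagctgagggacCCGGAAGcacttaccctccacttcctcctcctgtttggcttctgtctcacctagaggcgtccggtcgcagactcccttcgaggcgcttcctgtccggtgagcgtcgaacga
The NRF1 core begins 49 bases before the start in Atp5k, whose FPKM went from 266.6 ± 11.3 to 228.7 ± 22.7 (-0.23, adjusted p = 0.0373). The diets overlapped in Atp5k, and its call was kept with 1 of 8 mice left out in turn and lost with equal summed FPKM (adjusted p = 0.0847) and quantile normalization (adjusted p = 0.0571). The core begins 147 bases before the start in Atp5j, whose FPKM went from 121.0 ± 4.1 to 104.2 ± 2.8 (-0.21, adjusted p = 0.00537) without overlap, a call kept with each mouse left out in turn. Atp5k holds the ETS letters as well, and Atp5j holds those of ETS and YY1.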

How the data were processed

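RNA of 8 brain cortexes, 4 per diet, had been sequenced as 1 stranded, rRNA-depleted library per mouse. Per the study's methods, trimming by Trimmomatic and STAR alignment against mm10 came before Cuffnorm, from which the authors took FPKM, and these deposited FPKM values were used. The sources used here give no tool versions and do not say how reads that match several places were handled. Values are rounded to 0.1 FPKM and carry no depth, which leaves genes near 1 FPKM imprecise.

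From the deposited values, log2(FPKM + 0.1) was compared between diets with limma 3.58.1 (R 4.3.3, two-sided, variance trend, Benjamini-Hochberg adjustment over 13982 genes). The labels give no litter or cage, so p-values measure the spread between these mice. Alternatives were other added constants, filters and scalings, GC and length corrections, a replicate block and mice left out. 3 were chosen after seeing the data, namely the cerebellum covariate and each pair of mice left out. The procedure was tested on simulated data with independent noise for each gene. Such data lack differences shared across genes, such as those of the region markers, so that test does not bear on them. Transcripts were compared by blastn with GENCODE M21, in which all 102 genes were found. Sums, ratios and figures were made with Python 3.11.15, pandas 2.3.3 and matplotlib 3.10.9.

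Genes named are all mitochondrial protein genes, central subunits, restricted paralogs, up to 3 called genes per complex with the largest change, up to 2 each way per pathway list, and Ppargc1a, Nrf1, Gabpa, Tfam, Polrmt and Cycs. Further names fill in the members of a complex or list and were chosen after their values were seen. The members and lists were chosen with earlier results of these data known. The result of 1 gene is left out of the text.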

Additional observations from a re-analysis of the deposited data

Results flagged for a closer look

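Cox6a2, the heart and skeletal muscle form of complex IV subunit VIa, stood at 9.4 FPKM in HFD mouse 3, far from 6.3, 6.2 and 5.9 FPKM in the other HFD mice. It was singled out by the gap to its nearest neighbour divided by the range of the group, above Dixon's critical value for 4 samples. Of 86 groups tested in this way among the named genes it was 1, and chance would mark about 1 in 20.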

How the results depend on the processing

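The direction of the nuclear median was kept in every alternative run, from -0.2035 to -0.1431 on the log2 scale, and no nuclear gene was called higher in any. The mitochondrial median turned from 0.0697 to -0.001 without HFD mice 2 and 3 and to -0.0562 with the cerebellum covariate. The labels do not say that replicate numbers pair the mice. Deviations of same-numbered mice correlated at -0.109 to -0.028, and those of other pairs at -0.059 to 0.093. Such correlations over all genes cannot show whether mice shared a cage, litter or batch. With the replicate block, 31 nuclear genes were called lower, 30 of them shared with the 45 of the report, and all respiratory chain genes gave 2 higher and 32 lower.

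Counts over all respiratory chain genes were 2 higher and 46 lower. Higher counts were 1 with equal summed FPKM, with the GC correction, with the replicate block and GC correction together, without HFD mice 2 and 3 and without normal diet mice 2 and 3, and 0 with the covariate. Leaving out each mouse gave 1 to 3 higher, with 1 without normal diet mouse 3 or HFD mouse 2. Lower counts were 34 with equal summed FPKM and 33 with the replicate block and GC correction together. They were 15 without HFD mice 2 and 3, 25 without normal diet mice 2 and 3 and 4 with the covariate. Over genes of all classes, the 2480 higher became 989, 1528 and 441 and the 2146 lower became 756, 1215 and 370 in these 3 fits, and 1369 were lower with equal summed FPKM. The fits without a pair of mice hold fewer mice, and the covariate was itself lower on the HFD. The cause of the other shifts was not tested.

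No gene named in the report changed sign where it had a call. Of the 54 respiratory chain genes without a call, 22 crossed 0 in some setting, and those named in the report did so as follows, with Nrf1 and Gabpa added. Without HFD mice 2 and 3, mt-Nd1 gave -0.001, mt-Nd2 -0.0039, mt-Co2 -0.0941, Ndufa4l2 -0.2269, Cox6a2 -0.1318, Cox6b2 -0.1682, Atp5d -0.0034 and Cox8b 0.9283. Without normal diet mice 2 and 3, mt-Co2 gave -0.0344, mt-Co3 -0.1828, Cyc1 0.0187, Atp5e -0.0386, Ndufa4l2 -0.0785 and Cox6a2 -0.1533. With the covariate, mt-Nd1 gave -0.0485, mt-Co2 -0.0562, mt-Co3 -0.4214, mt-Atp6 -0.5036, Cyc1 0.0735, Ndufab1 0.008, Atp5e -0.0806, Gabpa 0.1341, Ndufa4l2 -0.233 and Cox6a2 -0.3237. Quantile normalization gave -0.0221 for mt-Nd1, -0.0058 for mt-Co2, -0.0435 for Ndufa4l2 and -0.0518 for Cox6b2. The GC correction, with or without the replicate block, gave -0.0073 for mt-Co2, -0.1032 for Ndufa4l2, -0.0739 for Cox6a1, -0.075 for Atp5d and -0.053 for Cox6b2. Median-ratio rescaling gave -0.006 for Ndufa4l2, -0.0002 for Atp5j2 and -0.0049 for Cox6b2, and an added constant of 1 gave -0.0278 for Cox6b2 and 0.0176 for Cox8b. When single mice were left out, the ranges were -0.0711 to 0.1021 for mt-Co2, -0.1213 to 0.1401 for mt-Co3, -0.1281 to 0.1015 for Ndufa4l2, -0.2093 to 0.1699 for Cox4i2, -0.1238 to 0.0971 for Cox6a2, -0.2839 to 0.3109 for Cox6b2 and -0.6282 to 0.3212 for Cox8b, the lowest values of Atp5e and Atp5j2 were -0.0145 and -0.0307, both without HFD mouse 1, and Nrf1 gave -0.0132 without normal diet mouse 4.

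Outside the left-out mice and the covariate, 13 settings were run, and 19 of the 48 respiratory chain calls were lost in at least 1 of them. They were Sdha, Cox5a, Cox6b1, Atp5o and Ndufa12 in 6 to 8 settings, Atp5g3, Atp5k and Ndufaf4 in 4, mt-Nd4 and Atp5s in 3, Atp5a1, Atp5h, Cox5b, Cox6c, Uqcrc2, Ndufa7 and Ndufb10 in 2, and Ndufa13 and Ndufb3 in 1. Of the 38 calls in the other lists, 21 were lost in at least 1, among them Cox10, Polg, Polg2, Pprc1 and Polrmt of the genes named.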
